A study of Rattus norvegicus with 10 samples.

Results

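The genes described here are 8 listed genes by which dopamine and noradrenaline neurons are recognized (Th, Slc6a3, Nr4a2, Pitx3, Aldh1a1, Dbh, Slc6a2, and Drd2). The expression table holds 32883 rat genes under Ensembl identifiers without symbols, and an identifier could be paired with 5 of the 8 genes. These are Nr4a2 (ENSRNOG00000005600), Pitx3 (ENSRNOG00000019194), Slc6a3 (ENSRNOG00000017302), Aldh1a1 (ENSRNOG00000017619), and Drd2 (ENSRNOG00000008428). Th, Dbh, and Slc6a2 were not analysed here. All 5 paired genes passed the filter on low values and are among the 15717 genes tested. Pitx3 and Slc6a3, with 0 to 4 reads in each control library, passed it only through the treated libraries, where they are high. The pairs of identifier and symbol come from a list of genes that the study had selected as upregulated on these same libraries, and of the 5 genes Nr4a2 and Drd2 come from the TSA rows of that list alone. The rise of a named gene below is therefore not independent evidence of its direction.

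Bulk mRNA was sequenced from primary cultures of the cerebral cortex of newborn Wistar rats, with inhibitors of histone deacetylases (HDACs, which take acetyl groups off histones) added on the 14th day in vitro and not washed out. Of the 10 libraries, 3 came from cultures given trichostatin A (TSA) at 100 nM for 19 h and 3 from their time-matched controls, while 2 came from cultures given sodium butyrate (NaB) for 24 h and 2 from their own time-matched controls. The dose of NaB is 5 µM in the sample labels and 5 mM in the study's methods. Drug, dose, incubation time, and project differed together between the experiments, so that these cannot be told apart. The cultures hold neurons and glia of many kinds, and a change in bulk RNA may be a change in the number of cells of a type or in the RNA per cell, which cannot be told apart here. The neuron, GABA neuron, astrocyte, oligodendrocyte, and microglia markers listed for a check of the labelled cell type could not be paired with identifiers and were not analysed here. Each library holds between 26070908 and 27649249 reads counted in genes, and values are given as normalized counts, that is, reads divided by 1 size factor per library.

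Dopamine and noradrenaline are catecholamines made from tyrosine. Tyrosine hydroxylase (Th) starts the pathway, and dopamine beta-hydroxylase (Dbh) turns dopamine into noradrenaline, which the transporter encoded by Slc6a2 returns to the cell. The cortex receives dopamine and noradrenaline axons whose cell bodies lie in the midbrain and the brainstem. In midbrain dopamine neurons the transcription factors Nr4a2 (also named Nurr1) and Pitx3 switch on and maintain the dopamine program. The transporter Slc6a3 takes released dopamine back up, and the enzyme Aldh1a1 oxidizes the aldehyde formed from dopamine and also makes retinoic acid. Drd2 is a dopamine receptor that lowers cyclic AMP, found on dopamine neurons themselves and on neurons that receive dopamine.

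Promoter sequences are shown for the genes with the largest fold changes, Pitx3 and Slc6a3, and for Aldh1a1, which like Nr4a2 and Drd2 was expressed in every control and changed less. Whether the sequence of a window goes with the size of the change was not tested. Each is the 250 bases before the RefSeq gene start in the rat assembly GRCr8, written 5′ to 3′ on the gene's strand, and a RefSeq window was found for 5 of the 5 genes. The reads were counted on another assembly, Rnor_6.0. Capitals mark the GC box GGGCGG (or its reverse complement CCGCCC) and the CCAAT box CCAAT (or ATTGG).
Pitx3, chr1:254955326-254955575, minus strand: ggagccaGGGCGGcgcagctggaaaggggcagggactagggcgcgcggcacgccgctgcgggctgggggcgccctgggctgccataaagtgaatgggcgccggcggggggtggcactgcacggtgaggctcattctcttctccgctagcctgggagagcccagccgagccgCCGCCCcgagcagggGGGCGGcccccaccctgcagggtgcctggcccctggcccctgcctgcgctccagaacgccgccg
Slc6a3, chr1:31578963-31579212, minus strand: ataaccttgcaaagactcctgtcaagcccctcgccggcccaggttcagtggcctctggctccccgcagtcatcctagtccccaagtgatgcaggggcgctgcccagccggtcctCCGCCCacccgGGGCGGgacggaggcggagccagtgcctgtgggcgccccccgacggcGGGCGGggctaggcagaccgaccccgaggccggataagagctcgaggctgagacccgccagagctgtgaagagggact
Aldh1a1, chr1:227537370-227537619, plus strand: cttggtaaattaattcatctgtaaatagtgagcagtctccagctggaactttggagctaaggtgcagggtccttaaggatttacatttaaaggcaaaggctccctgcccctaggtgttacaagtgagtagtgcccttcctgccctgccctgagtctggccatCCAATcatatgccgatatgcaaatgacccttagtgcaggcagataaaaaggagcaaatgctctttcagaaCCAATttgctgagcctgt

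The Pitx3 window had 23 CpG dinucleotides and 76.0% G and C, the Slc6a3 window had 20 and 70.0%, and the Aldh1a1 window had 1 and 46.4%. Among 33469 rat windows of the same length, 87.7% had fewer CpG than Pitx3, 83.3% had fewer than Slc6a3, and 7.8% had fewer than Aldh1a1. The window of Drd2 (14 CpG, with 72.4% of windows having fewer) lay between these, and that of Nr4a2 (5 CpG, 44.7%) was at the median of all windows. GC boxes numbered 3 in Pitx3, 3 in Slc6a3, and 2 in Drd2, and 30.5% of all windows held at least 1 on either strand. Aldh1a1 held 2 CCAAT boxes, which 34% of all windows have. None of the 5 windows held TATAAA (in 12.9% of all windows), the monomer site of NR4A factors AAAGGTCA (1.24%), or the cyclic AMP response element TGACGTCA (1.59%). No window of the 5 held more than one kind of motif, and these matches describe letters in a window, not bound sites.

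With TSA, Nr4a2, Pitx3, Slc6a3, and Drd2 rose, and Aldh1a1 did not pass the test. With NaB, Nr4a2, Pitx3, Slc6a3, and Aldh1a1 rose, and Drd2 did not pass the test. The largest changes were those of Pitx3 and Slc6a3, which had from 0 to 4 reads in each control library and 15.4 or more normalized counts in each treated library. Nr4a2, Aldh1a1, and Drd2 were already expressed in controls and changed less. A gene was called when its adjusted p in limma was below 0.05 and its log2 fold change was at least 0.5 in size, which gave 4 of 5 genes higher with TSA against 22.5% of all tested genes, and 4 of 5 higher with NaB against 21.2%. Of the 1828 named genes that were tested, 97.6% rose with TSA and 87.7% rose with NaB, and since the names came from genes selected for a rise, nothing is read from these counts. The median log2 fold change of the 5 genes was 1.50 with TSA and 1.99 with NaB, beside 0.022 and 0.020 over all tested genes and 1.90 and 1.85 over the 1828 named genes.

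Scaling by library totals in place of the deposited size factors moved the median over all genes to 0.203 with TSA and to 0.126 with NaB, and the share of called genes that rose with TSA from 53.3% to 68.3%. Under that scaling, each of the 5 genes still had a log2 fold change above 0 with each drug, and the log2 fold change of Nr4a2 with TSA was 1.68. The treated libraries all lay above the controls for 4 of the 5 genes with TSA and for 5 of the 5 with NaB, while this held for 33.1% and 40.2% of all tested genes. As the 5 genes were named from a list selected for a rise on these libraries, nothing is read from that comparison.

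**Figure D1:**
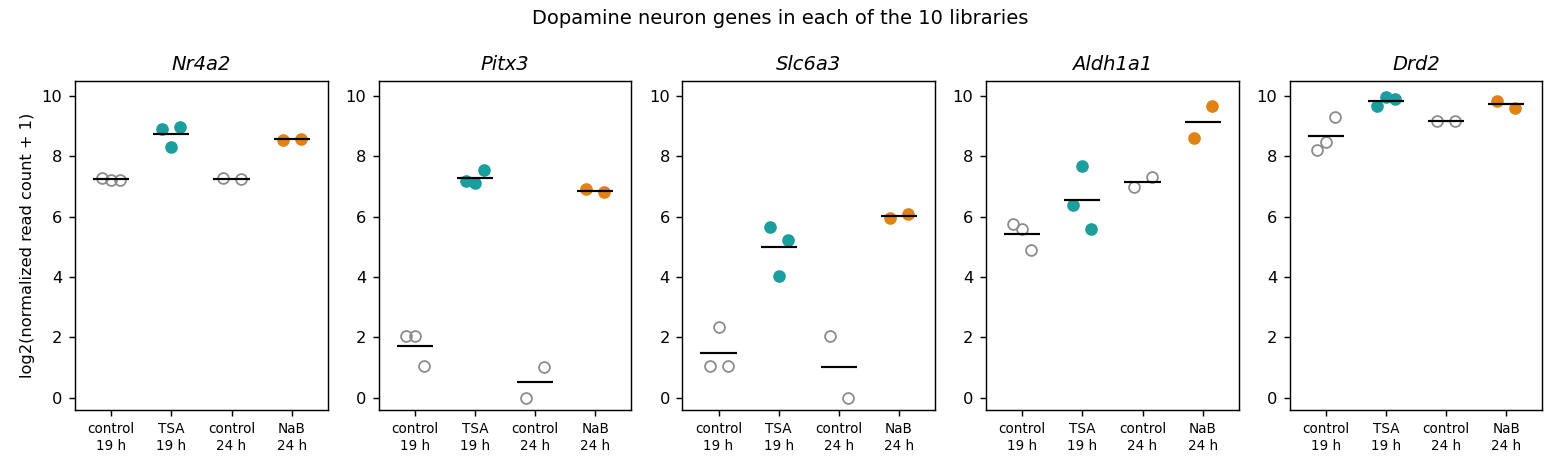
Each panel plots 1 gene, with log2(normalized read count + 1) on the vertical axis, 1 point per library and a bar at each group's mean (open circles for controls, teal for TSA, and orange for NaB). Pitx3 and Slc6a3 had controls below 3 and treated libraries above 4 on this scale, Nr4a2 had closely grouped controls, and the TSA libraries of Aldh1a1 overlapped their controls.

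Nr4a2, the orphan nuclear receptor that dopamine neurons need for their development and upkeep, had 155, 148, and 147 normalized counts in the 3 TSA controls and 483, 316, and 504 in the 3 TSA cultures. The NaB controls had 155 and 150.3 normalized counts, and the NaB cultures had 375 and 383. The 5 control libraries of both experiments thus lay between 147 and 155 normalized counts, and every treated library stood above them. With TSA the mean rose from 150.2 ± 4.26 (SD, n = 3) to 434 ± 103 (SD, n = 3), a log2 fold change of 1.50 (95% confidence interval 1.13 to 1.86, adjusted p = 3.00e-05, limma). With NaB it rose from 153 ± 3.50 (SD, n = 2) to 379 ± 5.35 (SD, n = 2), a log2 fold change of 1.30 (0.86 to 1.75, adjusted p = 0.000374, limma). Within pairs of control and treated cultures the ratio of Nr4a2 was 3.11, 2.13, and 3.43 with TSA and 2.42 and 2.55 with NaB. The second TSA library had the lowest value of the 3, and Nr4a2 rose under every alternative that was tried.

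Pitx3, the homeodomain factor that acts with Nr4a2 on dopamine genes, was close to absent in controls. It had 3, 3, and 1 reads in the TSA controls and 0 and 1 in the NaB controls. Its normalized counts were 144, 138, and 186 with TSA and 120 and 111 with NaB, so that no treated library came near a control. The reads of the group, 496 with TSA and 7 in its controls, stood in a ratio of 63.2 after scaling by the size factors (counting interval 30.5 to 158). With NaB, 242 reads against 1 gave a scaled ratio of 222, with a counting interval of 39.5 to 8810. These intervals and those for Slc6a3 cover counting error only. The log2 fold change, which the pseudocount of 1 makes smaller for a gene this low, was 5.56 with TSA (4.75 to 6.38, adjusted p = 1.54e-06, limma) and 6.35 with NaB (5.34 to 7.35, adjusted p = 5.80e-06, limma). With a pseudocount of 0.5 these values were 5.82 and 7.04, and with 5 they were 4.43 and 4.45. Leaving out 1 library at a time gave 5.23 to 5.74 with TSA, and with NaB 5.83 without the first and 6.86 without the second NaB control.

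Slc6a3, which encodes the dopamine transporter and is used as a defining marker of dopamine neurons, had 1, 4, and 1 reads in the TSA controls and 3 and 0 in the NaB controls. With TSA its normalized counts were 49.7, 15.4, and 36.9, and with NaB they were 60.5 and 66.5. The second TSA library was again the lowest of the 3, as for Nr4a2, and its control was the highest, which left a ratio of 3.73 in that pair against 47.1 and 34.6 in the others. Over the groups, 108 reads with TSA against 6 in its controls gave a scaled ratio of 16.1 (counting interval 7.14 to 44.7), and 133 reads with NaB against 3 gave 40.7 (13.6 to 200). The log2 fold change was 3.50 with TSA (2.14 to 4.86, adjusted p = 0.000618, limma) and 4.99 with NaB (3.33 to 6.65, adjusted p = 0.000312, limma). With a pseudocount of 0.5 the values for Slc6a3 were 3.79 and 5.57, and with 5 they were 2.37 and 3.43, and all passed the test. The NaB estimate depended on single control libraries, being 6.01 without the first and 3.97 without the second, and it passed the test in both cases. Slc6a3 had a within-group standard deviation of 0.88 on the log2 scale, which was larger than that of 97.9% of tested genes.

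Aldh1a1, the aldehyde dehydrogenase that marks a ventral group of midbrain dopamine neurons and is also found in cells that make retinoic acid, differed between the controls of the experiments. The TSA controls had 52.7, 47.4, and 28.8 normalized counts, and the NaB controls had 126 and 158. All NaB controls were above all TSA controls, as for 16.6% of tested genes. With TSA the libraries had 83.5, 203, and 47.6 normalized counts, and the third of these lay below the first control. Each treated library was nevertheless above the control of its own pair, by 1.58, 4.28, and 1.65 times. The log2 fold change with TSA was 1.14 (0.11 to 2.18), with an adjusted p of 0.0551 in limma, which missed the threshold. With the pairs as a block the adjusted p was 0.00288, and the gene also passed with DESeq2 (0.0399), with edgeR (0.0366), with library totals (0.0324), and without the third TSA library (0.0103), while the range over all alternatives was 0.00288 to 0.527. Without the second TSA library the log2 fold change was 0.59, and with all 5 controls as 1 group it was 0.45. By qPCR, with Aldh1a1 as its selected dopaminergic gene, the study reported that HDAC inhibitors left dopaminergic genes unaffected.

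With NaB, Aldh1a1 had 390 and 809 normalized counts, and both values were above both controls. The mean rose from 142 ± 22.2 (SD, n = 2) to 599.6 ± 296 (SD, n = 2), a log2 fold change of 1.99 (0.72 to 3.25, adjusted p = 0.0136, limma). With all 5 controls as 1 group the log2 fold change was 3.03. The call at 1.99 rested on single libraries. Without the first NaB control the log2 fold change of Aldh1a1 was 1.83 with an adjusted p of 0.0660, and without the second NaB library it was 1.46 with an adjusted p of 0.113 (limma). The range of the adjusted p over all alternatives was 0.000367 to 0.113.

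Drd2, the receptor by which dopamine inhibits both dopamine neurons and their targets, was expressed in every control. The TSA controls had 299, 357, and 635 normalized counts, and the TSA cultures had 811, 995, and 956. The third control was well above the other two, and all TSA cultures were above it. The mean rose from 430 ± 180 (SD, n = 3) to 921 ± 96.9 (SD, n = 3), a log2 fold change of 1.17 (0.67 to 1.67, adjusted p = 0.00116, limma). The ratio in the third pair was 1.51, compared to 2.72 and 2.78 in the others.

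The NaB controls of Drd2 had 573 and 582 normalized counts, within the range of the TSA controls, and the NaB cultures had 921 and 780. Both NaB cultures were above both controls, and the log2 fold change was 0.55 (-0.06 to 1.16) with an adjusted p of 0.114 in limma. Drd2 passed the test with NaB when the pairs were a block (adjusted p = 0.0249), when the NaB libraries were fitted alone (0.0108), when all 5 controls were 1 group (log2 fold change 0.85, adjusted p = 0.0159), and without the third TSA control (0.00811). That library enters the NaB test through the shared estimate of the spread. Over all alternatives the adjusted p with NaB ranged from 0.00811 to 0.346.

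**Figure D2:**
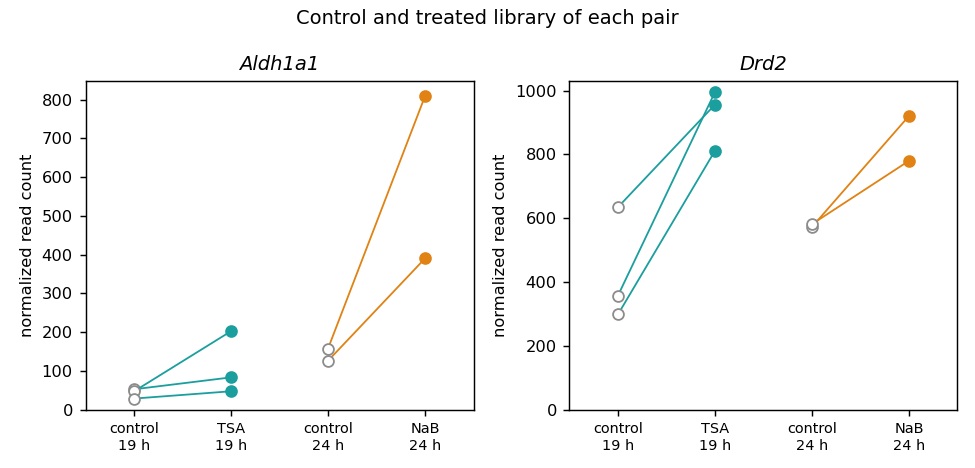
Normalized read counts of Aldh1a1 (left) and Drd2 (right) are plotted on linear axes from 0, with a line joining the control (open circle) and treated library (filled, teal for TSA and orange for NaB) of each pair. Every line rises for both genes, and the largest ratio (5.13, Aldh1a1) and the smallest (1.34, Drd2) both come from the second NaB pair.

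The changes with the drugs were compared by the test of their difference (NaB change minus TSA change), for which 47 genes or 0.299% of all tested genes were called. None of the 5 genes was among them. The difference was -0.19 for Nr4a2 (95% confidence interval -0.77 to 0.39, adjusted p = 0.813), 0.78 for Pitx3 (-0.51 to 2.08, 0.625), and 1.49 for Slc6a3 (-0.65 to 3.63, 0.567) on the log2 scale (limma). It was 0.84 for Aldh1a1 (-0.79 to 2.48, adjusted p = 0.686) and -0.61 for Drd2 (-1.40 to 0.17, adjusted p = 0.510). The intervals for Pitx3, Slc6a3, and Aldh1a1 reach beyond 2 log2 units, so that a large difference in any of these would not have been detected. Aldh1a1 passing the test with NaB and not with TSA, and Drd2 with TSA and not with NaB, are therefore not shown to differ between the drugs. The difference of Pitx3 turned to -0.41 (adjusted p = 0.738) when all 5 controls were taken as 1 group. In that setting the difference of Aldh1a1 was 2.58 (adjusted p = 0.0834, limma). For Slc6a3 the difference was 2.51 without the first NaB control and 0.47 without the second.

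**Figure D3:**
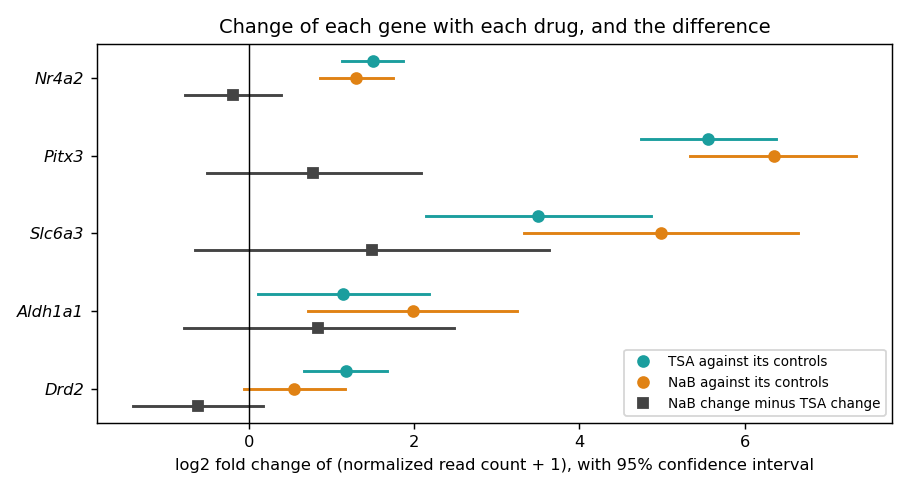
The horizontal axis gives log2 fold changes of (normalized read count + 1) with 95% confidence intervals for each gene with TSA (teal circles), with NaB (orange circles), and for the NaB change minus the TSA change (dark squares). The intervals of all 5 differences include 0, and those of Slc6a3 and Aldh1a1 are the widest.

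The 5 genes varied among themselves in how closely replicates followed each other. The within-group standard deviation was 0.22 for Nr4a2, 0.35 for Drd2, 0.47 for Pitx3, 0.73 for Aldh1a1, and 0.88 for Slc6a3 on the log2 scale, beside a median of 0.16 over all tested genes. The second TSA library was the lowest of the 3 for Nr4a2, Pitx3, and Slc6a3, and the highest for Aldh1a1 and Drd2. Over the 10 libraries, the named genes whose log2 values followed Nr4a2 most closely were Foxl2 (Pearson r = 0.994) and Bcap29 (0.993), and those most like Pitx3 were Nat9 (0.994) and Magee2 (0.993). The closest to Slc6a3 were Map3k6 (0.986) and Mc5r (0.984), to Drd2 Bnc2 (0.972) and Rbpms (0.961), and to Aldh1a1 Cav2 (0.909) and Ptpn22 (0.885). All 1827 candidates were named genes selected for a rise, so that high values are common, and r was above 0.95 for 469 genes with Pitx3, 428 with Nr4a2, 117 with Slc6a3, 8 with Drd2, and 0 with Aldh1a1. These values describe 10 libraries that share 2 experiments and their drugs.

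Of the 9 listed genes of catecholamine synthesis, 1 had an identifier. Gch1, which makes the first step towards the cofactor that tyrosine hydroxylase needs, had 32.7, 31.9, and 27.7 normalized counts in the TSA controls and 402, 282, and 419 with TSA. In the NaB experiment it had 13.5 and 11.5 in the controls and 320.4 and 313 with NaB. Its log2 fold change was 3.52 (adjusted p = 6.37e-07) in the TSA experiment and 4.56 (adjusted p = 2.71e-06) in the NaB experiment, and the difference between the drugs was 1.05 (adjusted p = 0.197, limma). Of the 6 listed transporters 2 had an identifier, Slc6a3 and the vesicular transporter Slc18a1, which loads monoamines into secretory vesicles and rose by log2 fold changes of 1.99 and 2.39 with TSA and NaB (adjusted p = 0.00353 and 0.00479, limma). Of the 7 listed genes of monoamine breakdown, Aldh1a1 was the one with an identifier.

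Of the 12 listed transcription factors of midbrain dopamine neurons, 8 had an identifier, and all 8 rose with TSA and 7 with NaB, beside 97.6% and 87.7% of all named genes. Beside Nr4a2 and Pitx3 these include Lmx1b, a LIM homeodomain factor of the early midbrain floor that serotonin neurons also need. Lmx1b had no read in any control and had 89.1, 55.2, and 90.4 normalized counts with TSA and 45.4 and 71.3 with NaB, that is, at least 74.1-fold higher and at least 37.3-fold higher than 3 reads over the control group. En1, a homeodomain factor of the midbrain and hindbrain border, rose by log2 fold changes of 2.61 with TSA and 1.61 with NaB (adjusted p = 1.20e-05 and 0.00131, limma). Ebf1, a factor of neuronal differentiation, rose by 2.81 and 2.99 (adjusted p = 6.09e-05 and 0.000214), and the forkhead factor Foxa1 rose by 3.40 and 4.00 (adjusted p = 0.00280 and 0.00437). Foxa1 had 0 to 8 reads in each control, so that its values depend on the pseudocount. The gene of this list that did not pass the test with NaB, named here after its values were seen, was Lmx1a, with a log2 fold change of 1.34 (adjusted p = 0.140, limma) after 1.96 with TSA (adjusted p = 0.0141). The median log2 fold change of the 8 genes was 2.71 with TSA and 2.34 with NaB, beside 1.90 and 1.85 over all named genes. Pitx3, Lmx1b, Foxa1, and Ebf1 were named from the NaB rows of the study's list, whose 833 tested genes had medians of 2.80 and 2.92. The others came from the TSA rows alone, with medians of 1.49 and 1.31, and nothing is read from the median of the 8 genes.

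Of the 10 listed transcription factors of noradrenaline neurons, 5 had an identifier, and all 5 rose with both drugs, beside 97.6% of named genes with TSA and 87.7% with NaB. Phox2a, the homeodomain factor that switches on Dbh, had 15.8, 18.5, and 17.1 normalized counts in the TSA controls and 89.1, 87.8, and 96.2 with TSA. Its log2 fold changes with TSA and NaB were 2.34 and 1.81 (adjusted p = 1.01e-05 and 0.000273, limma). Gata2, a zinc finger factor also known from blood and from serotonin neurons, rose by 6.12 and 4.11 (adjusted p = 6.14e-06 and 0.000388). Gata2 had 0, 1, and 2 reads in the TSA controls and 2 and 8 in the NaB controls, so that these values depend on the pseudocount. Hand2 and Tlx3 had no read in any control. Hand2, a factor of sympathetic neurons, was at least 12.2-fold higher in the TSA cultures and at least 11.3-fold higher in the NaB cultures, and the homeodomain factor Tlx3 was at least 17.0-fold and at least 11.3-fold higher. The median of the 5 genes was 4.22 with TSA and 4.11 with NaB, beside 1.90 and 1.85 over all named genes. It was 4.09 and 3.50 when the genes without control reads were placed at these bounds. Gata2, Gata3, Hand2, and Tlx3 were named from the NaB rows of the study's list. The 833 tested genes of those rows had higher medians, 2.80 with TSA and 2.92 with NaB, and nothing is read from the medians of the 5 genes.

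Among the 5 dopamine receptors, 3 had an identifier, and all 3 rose with TSA and 1, Drd4, with NaB. All 3 were named from the TSA rows alone, a set of 995 tested genes of which 99.6% rose with TSA and 78.3% with NaB, and none of the 3 was called for the difference between the drugs (adjusted p = 0.510 for Drd2, 0.895 for Drd4, and 0.330 for Drd5, limma). Drd5, a receptor that raises cyclic AMP, had 0, 1.03, and 2.13 normalized counts in the TSA controls and 18.8, 19.9, and 14.6 with TSA. Its log2 fold change with TSA was 3.33 (adjusted p = 0.000191), while the value of 1.36 with NaB did not pass the test (adjusted p = 0.0767, limma). Drd4, which like Drd2 lowers cyclic AMP, rose by 2.51 with TSA (adjusted p = 0.00649) and by 2.05 with NaB (adjusted p = 0.0487, limma) from at most 6.33 normalized counts in a control. The call with NaB was lost without the filter on low values (adjusted p = 0.0741). Of the adrenoceptors, through which noradrenaline acts, Adra1d had 134, 90.6, and 83.2 normalized counts in the TSA controls and 696, 662, and 600.4 with TSA, a log2 fold change of 2.69 (adjusted p = 1.23e-05), and changed by 2.81 with NaB (adjusted p = 5.36e-05, limma). Adrb3 rose by 3.21 and 3.62 and Adra1a by 1.77 and 0.85 with TSA and NaB. Adrb3 had 0 to 3 reads in each control, so that its values depend on the pseudocount.

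**Figure D4:**
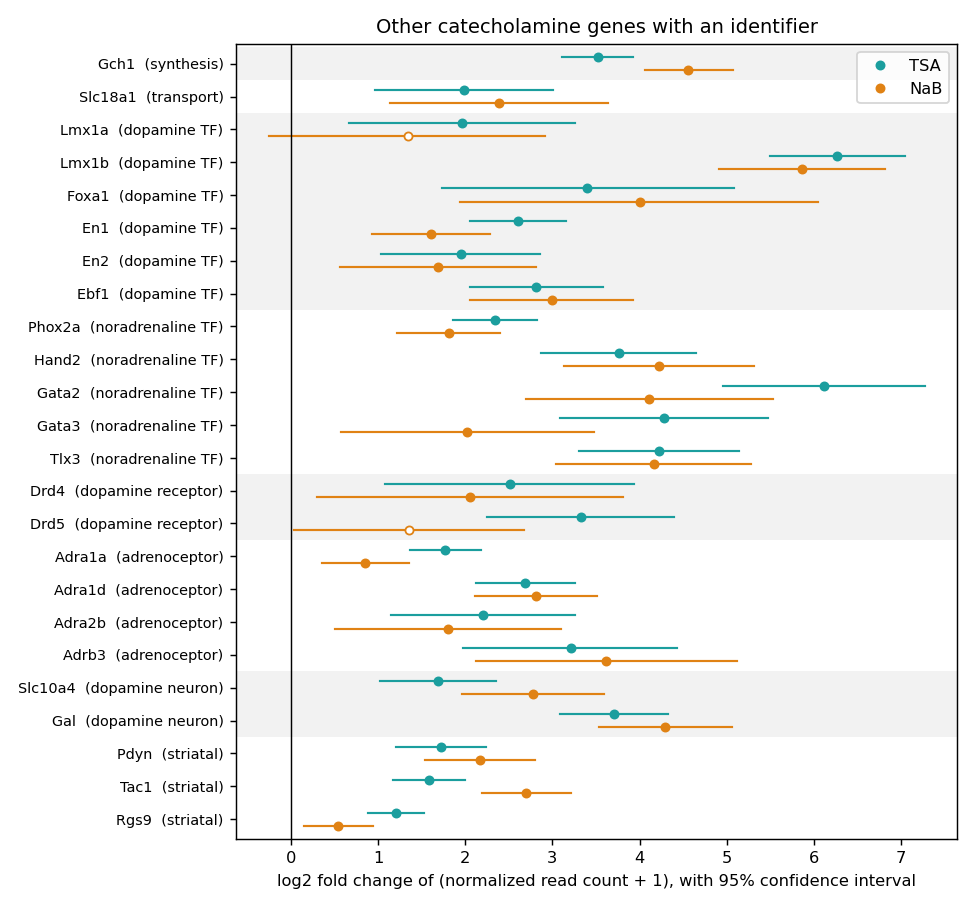
The horizontal axis gives the log2 fold change of (normalized read count + 1) with its 95% confidence interval for further genes of the catecholamine lists, with TSA in teal and NaB in orange, and open points for genes that were not called. All points lie to the right of 0, the side for which these genes were selected, and the open points are Lmx1a and Drd5 with NaB. The points of Lmx1b, Hand2, and Tlx3, which had no control read, depend on the pseudocount. Those of genes with few control reads, such as Gata2, Gata3, Foxa1, Drd5, and Adrb3, also depend on it.

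Of 12 further genes enriched in dopamine neurons, 2 had an identifier. Slc10a4, a transporter-like protein of monoamine vesicles, rose by log2 fold changes of 1.69 and 2.78 with TSA and NaB (adjusted p = 0.000688 and 0.000141, limma). The neuropeptide gene Gal rose by 3.71 and 4.29 (adjusted p = 3.21e-06 and 9.18e-06). Of 12 genes of striatal neurons that receive dopamine, 3 had an identifier. Beside 97.6% of named genes with TSA and 87.7% with NaB, all 3 rose with both drugs. These were the opioid peptide gene Pdyn (1.72 and 2.17), the substance P gene Tac1 (1.59 and 2.7), and Rgs9, a brake on G-protein signalling downstream of Drd2 (1.21 and 0.54). For Tac1 the difference between the drugs was 1.11, with an adjusted p of 0.182, and of 0.0461 with the pairs as a block (limma).

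Relatives of Pitx3 and Aldh1a1 were read in the same way, again among genes selected for a rise. Pitx1, known from the pituitary and the hindlimb, rose by log2 fold changes of 4.89 and 3.57 (adjusted p = 1.57e-05 and 0.000612, limma). Pitx1 had 0 to 3 reads in each control, so that its values depend on the pseudocount. Of the 3 genes of the Aldh1a family, Aldh1a2, which makes retinoic acid in the embryo and in the meninges, rose by 3.92 and 4.68 (adjusted p = 0.00130 and 0.00194, limma), while Aldh1a3 was not analysed here. Of the 3 NR4A genes, Nr4a2 alone had an identifier.

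Markers of other cell types changed in the same libraries, and their part in the changes of the dopamine neuron genes was not tested. All 4 listed markers of serotonin neurons had an identifier, and their summed level was 12.7, 9.27, and 18.1 normalized counts in the TSA controls, 140, 95.9, and 137 with TSA, 80.8 and 174 in the NaB controls, and 232 and 295 with NaB. By group mean the most abundant of the 4 was Slc6a4 in the TSA controls (5.27), Tph1 with TSA (51.0), and Tph2 in the NaB controls (116) and with NaB (112). The tryptophan hydroxylase gene Tph2 had 4.22, 3.09, and 6.40 normalized counts in the TSA controls but 68.3 and 164 in the NaB controls, so that the controls of the experiments differed in it as they did in Aldh1a1. Tph2 rose with TSA (log2 fold change 1.50, adjusted p = 0.00627) and did not pass the test with NaB (0.02, adjusted p = 0.978, limma). The other 3, Fev, Tph1, and the serotonin transporter gene Slc6a4, rose with both drugs. Of all named genes, 97.6% rose with TSA and 87.7% with NaB. Fev, the defining factor of serotonin neurons, had at most 1 read in each control.

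Of the 3 cholinergic markers, Slc18a3 and Slc5a7 had an identifier. Both rose with both drugs, beside 97.6% of named genes with TSA and 87.7% with NaB. The sum of Slc18a3 and Slc5a7 was 64.9 to 112 normalized counts in the TSA controls and 343 to 480 with TSA. Of the 6 endothelial and mural markers, Flt1, Kdr, and Rgs5 had an identifier. Beside 97.6% of named genes with TSA and 87.7% with NaB, all 3 rose with both drugs. Their sum was 27.4, 17.5, and 27.7 in the TSA controls and 240, 192, and 273 with TSA, and 28.0 and 53.2 in the NaB controls and 201 and 200 with NaB. By group mean Kdr was the most abundant of the 3 except with NaB, where Flt1 (82.2) was above Kdr (63.9). Of the 6 meningeal fibroblast markers, Col1a1 had an identifier. It had 909, 47.4, and 1379 normalized counts in the TSA controls and 798, 696, and 879 with TSA, and 149 and 137 in the NaB controls and 876 and 961 with NaB. Col1a1 was not called with TSA (log2 fold change 1.00, adjusted p = 0.381) or with NaB (2.68, adjusted p = 0.0735, and 0.0117 with the pairs as a block, limma). In the second TSA pair Col1a1 went from 47.4 to 696, and in the other TSA pairs from 909 to 798 and from 1379 to 879.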

How the data were processed

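The authors mapped reads to Rnor_6.0 with STAR 2.7.9a, counted them per gene with featureCounts 2.0.1, and used the median-of-ratios size factors of DESeq2 1.29. Each deposited signal is thus a number of reads over the size factor of its library. Division by the value of 1 read gave whole reads for 100% of values above 0 (relative tolerance 1e-06). Differences of a few reads cannot be seen at 26070908 to 27649249 reads per library. How reads were assigned to strands is not given in the sources used here, so that genes which overlap others are uncertain to that extent.

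Identifiers were paired with symbols through the readable rows of the study's list of upregulated genes (1909 pairs), and the members and gene lists were chosen with earlier results of these data known. The study's fold changes and p-values in that list were not used. Genes that passed filterByExpr in edgeR (minimum count 10), 15717 of 24293 with a read, were fitted in limma 3.58.1 (R 4.3.3) on log2(value + 1) with an intensity trend. Genes with few reads in controls, such as Pitx3, Slc6a3, Gata2, Fev, Pitx1, Drd5, and Adrb3, passed the filter only through their treated libraries. All 10 libraries entered in 4 groups, with contrasts for TSA, NaB, and their difference. Tests were two-sided, with Benjamini-Hochberg adjustment over all tested genes. Replicates are labelled as biological and none were identical (chi-square per degree of freedom of 8.17 to 31.6 between replicates). On the recovered reads, edgeR 4.0.16 called 6657 genes with TSA and 6546 with NaB, beside 6644 and 6521 in limma, and DESeq2 1.42.0 was a further alternative. Beside the members, up to 4 genes per list were named, those with the smallest value of the larger of their p-values with TSA and NaB, and for each member the 2 named genes with the highest r.

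According to the study's methods, a control and its treated culture grew on the same plate. Pairs were taken from the replicate numbers for TSA and from consecutive library names for NaB. Deviations from group means correlated within pairs (r of 0.284, 0.392, and 0.314 for TSA and 0.342 for NaB). Ranges given beside ratios of reads are exact 95% intervals for counting error. A fold against a group without a read was computed against 3 reads over the group, with the treated reads taken as counted, so that the lower end of an exact interval would be lower. Promoter sequences are from RefSeq. Some listed genes are not reported here.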

Additional observations from a re-analysis of the deposited data

How the results depend on the processing

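Alternatives covered DESeq2 and edgeR on recovered reads, library totals, no filter on low values or a mean of at least 50 normalized counts, pseudocounts of 0.5 and 5, a minimum log2 fold change of 1, each experiment alone, all 5 controls as 1 group, the replicate block, and each library left out in turn. Under all of these, Nr4a2, Pitx3, and (where tested) Slc6a3 passed the test with both drugs and Drd2 passed it with TSA, while Aldh1a1 with either drug and Drd2 with NaB changed sides of the threshold under some, as given above. Between 3 and 5 of the 5 genes were called with each drug, 4 to 5 with TSA and 3 to 5 with NaB when 1 library was left out, and 3 with a mean of at least 50, where Slc6a3 is not tested. With a lone sample in a NaB group, its spread was taken to be that of the other groups. As the 5 genes were named from a list selected for a rise on these libraries, passing under refits of them is not independent evidence of a rise. None of the 5 was called for the difference between the drugs under any alternative, and the only value that changed sign was that of Pitx3 with all 5 controls as 1 group (-0.41 against 0.78).

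Requiring a log2 fold change of 1 left 3416 genes with TSA and 3450 with NaB, and leaving out 1 library gave 6164 to 6718 and 5649 to 6581. The 47 genes called for the difference became 250 with DESeq2, 71 with library totals, 31 without a filter, 422 with all 5 controls as 1 group, and 404 with the replicate block, and 1 to 45 when 1 library was left out. The lowest, 1, was without the second NaB control. The cause was not tested. At an unadjusted p below 0.05, 1978 genes differed. Among the 5 genes, the block changed the calls of Aldh1a1 with TSA (adjusted p = 0.00288, limma) and of Drd2 with NaB (0.0249) and no other. The block assumes that the pairs, taken from replicate numbers and library names, grew on the same plate, which no label states. Depth limits Pitx3 and Slc6a3 most, since their controls hold 0 to 4 reads per library.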
